A study of Mus musculus with 6 samples.

Results

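The genes of the proteasome were compared between liver samples of Igfbp7 knockout (KO) mice and of wild type (WT) mice. Members were all rows of the count tables whose symbol starts with Psm, followed by a letter from a to g and a digit, which gave 49 of 22609 genes. Of these, 5 belong to the immunoproteasome (Psmb8, Psmb9, Psmb10, Psme1 and Psme2) and 44 are all other members. RNA of adult liver was sequenced in 3 KO and 3 WT samples, all on the C57BL/6 strain. The KO allele of Igfbp7, whose product is secreted and binds insulin-like growth factors, was made by Cre-loxP recombination. The sources used here name no Cre driver, sex or exact age. Whether each sample is a different animal is not stated either, so p-values measure the spread between these samples, which may be technical.

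The proteasome is the protease that degrades ubiquitin-tagged proteins. Its barrel-shaped core particle is built of alpha rings, which gate the entrance, and beta rings, which carry the catalytic sites. A cap, the regulatory particle, binds ubiquitin chains, unfolds the substrate with a ring of ATPases and feeds it into the core. In immune cells, and in other cells exposed to interferon-gamma, Psmb8, Psmb9 and Psmb10 take the places of the catalytic subunits Psmb5, Psmb6 and Psmb7, and Psme1 and Psme2 form an alternative cap. This immunoproteasome is known for producing peptides that are loaded on MHC class I molecules.

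Promoter windows of the members were searched for 3 motifs bound by factors known to regulate immunoproteasome or proteasome genes. All 49 members matched the RefSeq gene table, and 41 have at least 1 window. The windows, from RefSeq (GRCm38.p6), run from 250 bases before to 50 bases after a gene's start, and both strands were searched. The Psmb8 window lies on the plus strand at chr17:34197945-34198244, the Psmb9 window on the minus strand at chr17:34187281-34187580, and the Psme1 window on the plus strand at chr14:55578244-55578543. These 3 are shown because Psmb8 and Psmb9 had the largest differences between genotypes and Psme1 holds an interferon motif. Capitals mark the matches.
Psmb8: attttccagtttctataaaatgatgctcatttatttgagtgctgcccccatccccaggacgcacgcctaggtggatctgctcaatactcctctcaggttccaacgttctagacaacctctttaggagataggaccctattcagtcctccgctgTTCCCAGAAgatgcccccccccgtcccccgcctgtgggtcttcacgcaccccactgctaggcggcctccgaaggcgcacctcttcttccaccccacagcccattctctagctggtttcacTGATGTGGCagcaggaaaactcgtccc
Psmb9: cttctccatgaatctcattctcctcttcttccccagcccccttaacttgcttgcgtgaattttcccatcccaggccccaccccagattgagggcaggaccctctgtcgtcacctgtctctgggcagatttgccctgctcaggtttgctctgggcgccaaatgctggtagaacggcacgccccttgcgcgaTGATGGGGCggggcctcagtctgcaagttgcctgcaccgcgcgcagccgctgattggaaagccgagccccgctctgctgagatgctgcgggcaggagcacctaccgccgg
Psme1: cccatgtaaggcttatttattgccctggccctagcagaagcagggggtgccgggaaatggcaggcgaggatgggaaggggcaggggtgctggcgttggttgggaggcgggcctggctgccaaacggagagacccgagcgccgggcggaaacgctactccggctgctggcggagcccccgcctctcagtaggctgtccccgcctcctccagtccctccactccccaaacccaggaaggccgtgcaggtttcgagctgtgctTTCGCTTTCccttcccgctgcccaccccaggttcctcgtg
The Psmb8 window holds TTCCCAGAA, a match to the interferon-gamma activated site TTCNNNGAA, and its first base lies at position -97 from the start. It also holds TGATGTGGC at position 24, a match to the antioxidant response element TGANNNNGC. The Psmb9 window holds TGATGGGGC at position -60. The Psme1 window holds TTCGCTTTC at position 11, which is the interferon-stimulated response element core GAAANNGAA on the other strand. The Psmb10 window held none of the 3, and the Psme2 windows held an antioxidant response element match alone. The motifs are short. GAAANNGAA was found in 8.6% of 32851 promoter windows and in 7 of 44 windows of the members, TTCNNNGAA in 8.3% of all and in 3 of the 44, and TGANNNNGC in 41.3% of all and in 26 of the 44. Outside the immunoproteasome, GAAANNGAA lay in windows of Psmb3, Psmb4, Psmc2, Psmd4, Psmd9 and Psmg4, and TTCNNNGAA in windows of Psmd2 and Psmg1. A match is a run of letters and was not tested for binding.

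Gene counts per library numbered 22419411, 18912701 and 19570906 in KO samples and 18497934, 21478524 and 16712568 in WT samples. Igfbp7 averaged 0.263 ± 0.168 CPM (gene counts over a library size scaled by TMM, which offsets differences in library composition) in KO samples and 72.4 ± 10.1 CPM in WT samples (SD, n = 3 each). Its log2 fold change, KO over WT as in all that follow, was -8.05 ± 0.27 (SE; adjusted p = 6.34e-06, edgeR's quasi-likelihood test with Benjamini-Hochberg adjustment over the 12522 genes tested). Markers of hepatocytes summed to 99709 to 120304 CPM in KO samples and 87473 to 107404 CPM in WT samples, so the liver label held. WT library 1 stood apart in clock genes: Arntl was at 2.75, 1.91 and 2.21 CPM in KO samples and at 17.6, 2.85 and 2.31 CPM in WT samples 1 to 3. With adjusted p under 0.05, 27 genes (0.216% of those tested) passed, 11 of them lower in KO samples (0.0878%) and 16 higher (0.128%).

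All 5 immunoproteasome genes had lower mean levels in KO samples, and the catalytic subunits Psmb8 and Psmb9 had the largest differences. None passed the threshold over all genes by edgeR. Of the 49 members, 47 could be tested, and 0 passed, against 0.216% of all genes tested (0.0878% lower in KO samples). By the unadjusted p, 5 of the 47 lay under 0.05 (10.6%), against 15.4% of all genes tested. Of these, 4 were lower in KO samples (Psmb8, Psmb9, Psmd7 and Psmd11), against 7.35% of all genes tested, and 1 was higher (Psmd9), against 8.1%. DESeq2 called 2 members, Psmb8 and Psmb9, both lower in KO samples. It called 3.43% of the 12534 genes it tested, 1.55% lower.

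Psmb8, the immunoproteasome subunit with chymotrypsin-like activity, was at 26.5, 29.3 and 24.6 CPM in KO samples and at 40.0, 51.0 and 37.5 CPM in WT samples. Each KO value lay below each WT value. Groups did not overlap in 20.7% of all genes tested, with KO lower in 10.1%. The means were 26.8 ± 2.37 CPM in KO samples and 42.8 ± 7.16 CPM in WT samples (SD, n = 3 each), a fold of 0.625. The log2 fold change was -0.68 ± 0.14 (SE; edgeR adjusted p = 0.0823), and 3.42% of genes tested had one as low or lower. With DESeq2 the adjusted p was 0.00232 and the call was made.

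Psmb9 replaces Psmb6 in the immunoproteasome. It was at 12.1, 17.0 and 11.7 CPM in KO samples and at 25.3, 29.6 and 15.4 CPM in WT samples. The groups overlapped, since KO sample 2 lay above WT sample 3. Its log2 fold change of -0.79 ± 0.24 (SE) was the lowest of all members, with an edgeR adjusted p of 0.182 and a DESeq2 adjusted p of 0.0408. Leaving out WT sample 2, the highest library for both genes, gave -0.54 for Psmb8 and -0.58 for Psmb9.

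Psmb10, which replaces the trypsin-like subunit Psmb7, was at 35.9, 35.9 and 31.6 CPM in KO samples and at 35.5, 46.1 and 36.5 CPM in WT samples. The groups overlapped, and the log2 fold change was -0.19 ± 0.12 (SE; edgeR adjusted p = 0.505). Without WT sample 2, its highest library, it was -0.07. Psme1, of the alternative cap, was at 65.8, 54.7 and 52.9 CPM in KO samples and at 62.4, 68.4 and 68.5 CPM in WT samples. Here too the groups overlapped, with a log2 fold change of -0.20 ± 0.11 (SE; edgeR adjusted p = 0.406). Its annotated span overlaps Emc9, and with no strand setting given reads of the pair may not be separated. Psme2, its partner, was at 11.9, 13.1 and 13.0 CPM in KO samples and at 12.2, 14.5 and 13.0 CPM in WT samples, a log2 fold change of -0.07 ± 0.12 (SE; edgeR adjusted p = 0.839). Of its transcript, 82.5% is shared with near-identical sequence elsewhere, so its counts are uncertain.

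**Figure D1:**
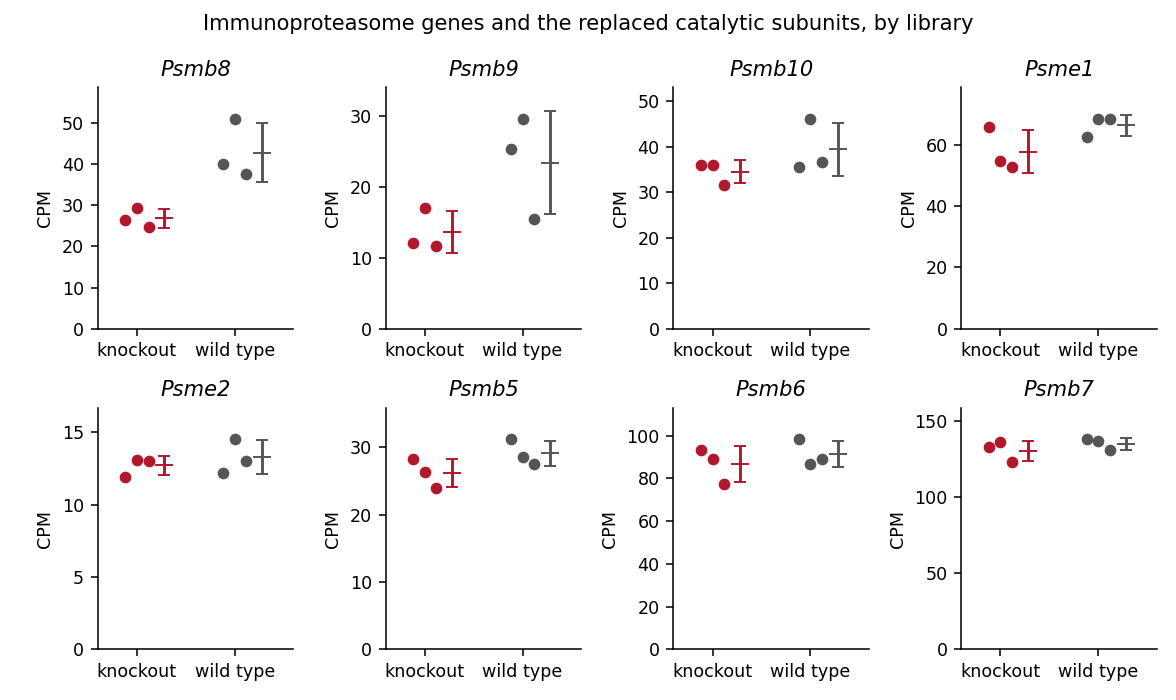
CPM per library (dots) and mean with SD (bars) of the immunoproteasome genes and of the catalytic subunits they replace, KO left of WT. In Psmb8 all 3 KO dots lie below all 3 WT dots, from 24.6 to 29.3 against 37.5 to 51.0 CPM, while Psmb6 and Psmb7 overlap between genotypes.

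The replaced catalytic subunits showed smaller differences. Psmb5, the constitutive chymotrypsin-like subunit, was at 28.3, 26.3 and 24.0 CPM in KO samples and at 31.2, 28.6 and 27.6 CPM in WT samples, and the groups overlapped. Its log2 fold change was -0.15 ± 0.10 (SE; edgeR adjusted p = 0.527), and 88.4% of its transcript is shared with other loci. Psmb6, the caspase-like subunit, was at 93.5, 89.1 and 77.3 CPM in KO samples and at 98.3, 86.9 and 88.9 CPM in WT samples. Psmb7 was at 133, 136 and 123 CPM in KO samples and at 138, 137 and 131 CPM in WT samples. The log2 fold changes were -0.08 ± 0.10 for Psmb6 and -0.05 ± 0.08 for Psmb7 (SE; edgeR adjusted p = 0.767 and 0.825).

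The ratio of an immunoproteasome subunit to the subunit it replaces needs no scaling between libraries. The log2 count ratio of Psmb8 to Psmb5 was -0.09, 0.16 and 0.03 in KO samples and 0.36, 0.83 and 0.44 in WT samples, with no overlap. It averaged 0.03 ± 0.13 in KO samples and 0.54 ± 0.25 in WT samples (SD, n = 3 each), a difference of -0.51 with an exact 2-sided permutation p of 0.1, the smallest that 3 against 3 allows. Per exon length, Psmb8 made up 34.1%, 38.1% and 36.1% of the summed Psmb8 and Psmb5 level in KO samples and 41.4%, 49.6% and 42.9% in WT samples. Because reads placed at several positions are not in the counts and 88.4% of the Psmb5 transcript is shared with other loci, the size of this share is uncertain.

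The log2 ratio of Psmb9 to Psmb6 was -2.95, -2.39 and -2.72 in KO samples and -1.96, -1.56 and -2.53 in WT samples, with overlap and a difference of -0.67 (exact permutation p = 0.2). Per exon length, Psmb9 made up 7.08%, 10.1% and 8.23% of the pair's summed level in KO samples and 13.2%, 16.7% and 9.25% in WT samples. The log2 ratio of Psmb10 to Psmb7 was -1.89, -1.92 and -1.96 in KO samples and -1.96, -1.57 and -1.84 in WT samples, a difference of -0.13 (exact permutation p = 0.3). Psmb10 made up 19.3%, 19% and 18.6% of its pair per exon length in KO samples and 18.6%, 23% and 19.8% in WT samples. The size of all these shares depends on exon lengths from GENCODE M21, while the annotation used for the counts is not given. Adjusted over the 3 ratios, each exact p was 0.3. With 3 samples against 3, no ratio could have passed 0.05.

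**Figure D2:**
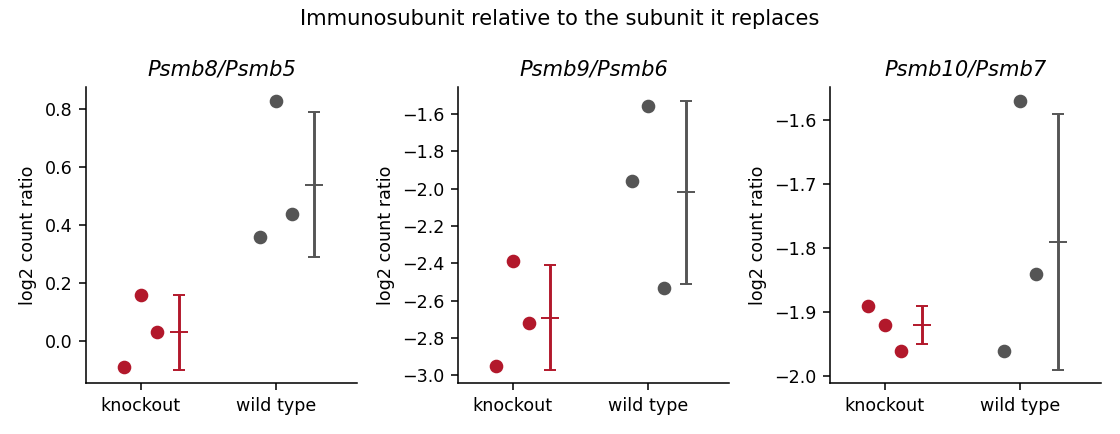
Log2 count ratio of each immunoproteasome subunit to the subunit it replaces, per library (dots) with the group mean and SD (bars), KO left of WT, on a separate scale for each ratio. For Psmb8 over Psmb5 the KO dots lie from -0.09 to 0.16, below the WT dots from 0.36 to 0.83, while the other ratios overlap between genotypes.

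Genes around the immunoproteasome were then examined. In the RefSeq order on chromosome 17, Psmb9, Tap1, Psmb8 and Tap2 lie next to each other, in the MHC region. Tap1, a subunit of the transporter that carries the peptides into the endoplasmic reticulum, was at 18.7, 28.8 and 19.5 CPM in KO samples and at 34.7, 46.3 and 28.5 CPM in WT samples. Like Psmb9, it overlapped between KO sample 2 and WT sample 3. Its log2 fold change was -0.71 ± 0.21 (SE; edgeR adjusted p = 0.175). Tap2, mentioned here because it lies beside Psmb8, had -0.28 ± 0.13 (SE; edgeR adjusted p = 0.332) with no overlap.

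In a list of MHC class I presentation genes, all 13 tested members had negative log2 fold changes, with a median of -0.30, against 0.00 over all genes tested. None passed the edgeR threshold, 6 lay under an unadjusted p of 0.05, against 15.4% of all genes tested, and DESeq2 called 3 (H2-D1, H2-K1 and Tap1), against 3.43%. H2-D1, a class I heavy chain, averaged 269 ± 23.7 CPM in KO samples and 407 ± 46.3 CPM in WT samples (SD, n = 3 each). The log2 fold change was -0.60 ± 0.12 (SE; edgeR adjusted p = 0.0801). The log2 fold changes of H2-K1, another heavy chain, and of Calr, a chaperone of its loading, were both -0.42 (edgeR adjusted p = 0.136 and 0.225).

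Interferon-gamma signalling genes were split in direction, but those with the lowest p-values were lower in KO samples. Of 14 listed, 12 were tested, 6 with negative and 6 with positive log2 fold changes, with a median of 0.00 and 0 called by edgeR. DESeq2 called 1, lower in KO samples, against 3.43% of all genes it tested (1.55% lower). Under an unadjusted edgeR p of 0.05 lay 2, both lower in KO samples, against 15.4% of all genes tested (7.35% lower). Irf8, a transcription factor of myeloid cells, had -0.39 (edgeR adjusted p = 0.287). Ifng itself had 0, 1 and 1 counts in KO samples and 1, 0 and 0 counts in WT samples, too few to compare.

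Markers of immune cells also had lower values in KO samples. All 13 Kupffer cell and macrophage markers had negative log2 fold changes, with a median of -0.69. Their summed level was 476, 403 and 625 CPM in KO samples and 842, 807 and 747 CPM in WT samples. Of 9 markers of dendritic cells and MHC class II, 8 were tested and all 8 were negative too (median -1.14), summing to 77.3 to 125 CPM in KO samples and 186 to 282 CPM in WT samples. Of lymphocyte markers 10 of 16 were tested, all 10 negative (median -0.62). The 16 summed to 14.2 to 18.7 CPM in KO samples and 23.4 to 26.7 CPM in WT samples. Much of this sum came from Ptprc, which is expressed by white blood cells in general and not by lymphocytes alone. Ptprc was at 6.2, 6.06 and 12.7 CPM in KO samples and at 13.5, 13.3 and 11.8 CPM in WT samples. No gene of these lists passed the edgeR threshold. DESeq2 called 10 of the Kupffer cell markers, 5 of the dendritic cell and MHC class II markers and 0 of the lymphocyte markers, against 3.43% of all genes it tested (1.55% lower in KO samples). The 5 were all genes of MHC class II presentation, and no tested marker of dendritic cells themselves was called. Flt3, the dendritic cell marker not tested, averaged 0.407 CPM in KO samples and 0.226 CPM in WT samples. No marker was at 0 in all libraries. Endothelial markers had a median of -0.05 and stellate cell markers of -0.15. KO sample 3 had the highest Kupffer cell sum of the KO samples and the lowest Psmb8. It was also the lowest library for 25 of the 42 tested members outside the immunoproteasome. Among WT samples, sample 3 had the lowest Kupffer cell sum and the lowest Psmb8, while sample 1 had the highest sum and sample 2 the highest Psmb8. The dendritic cell and MHC class II sums were 244, 282 and 186 CPM in WT samples 1 to 3, the order of Psmb8. In KO samples 1 to 3 these sums were 117, 77.3 and 125 CPM, the reverse of the Psmb8 order. In bulk tissue, fewer cells of a type and less RNA per cell cannot be told apart, and the part of these cells in the immunoproteasome values was not tested.

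The other members had small differences. Of the 42 tested, 34 had a negative log2 fold change, with a median of -0.08 and a range from -0.28 to 0.34. Over all members it was 39 of 47 (83.0%), against 49.7% of all genes tested. In 8 of the 42 the KO values lay below all WT values, against 10.1% of all genes tested, and in 2 (4.76%) above them, against 10.7%. The 5 immunoproteasome genes had a median of -0.20, and 1 of the 5 separated. Members of a complex are not independent of each other.

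**Figure D3:**
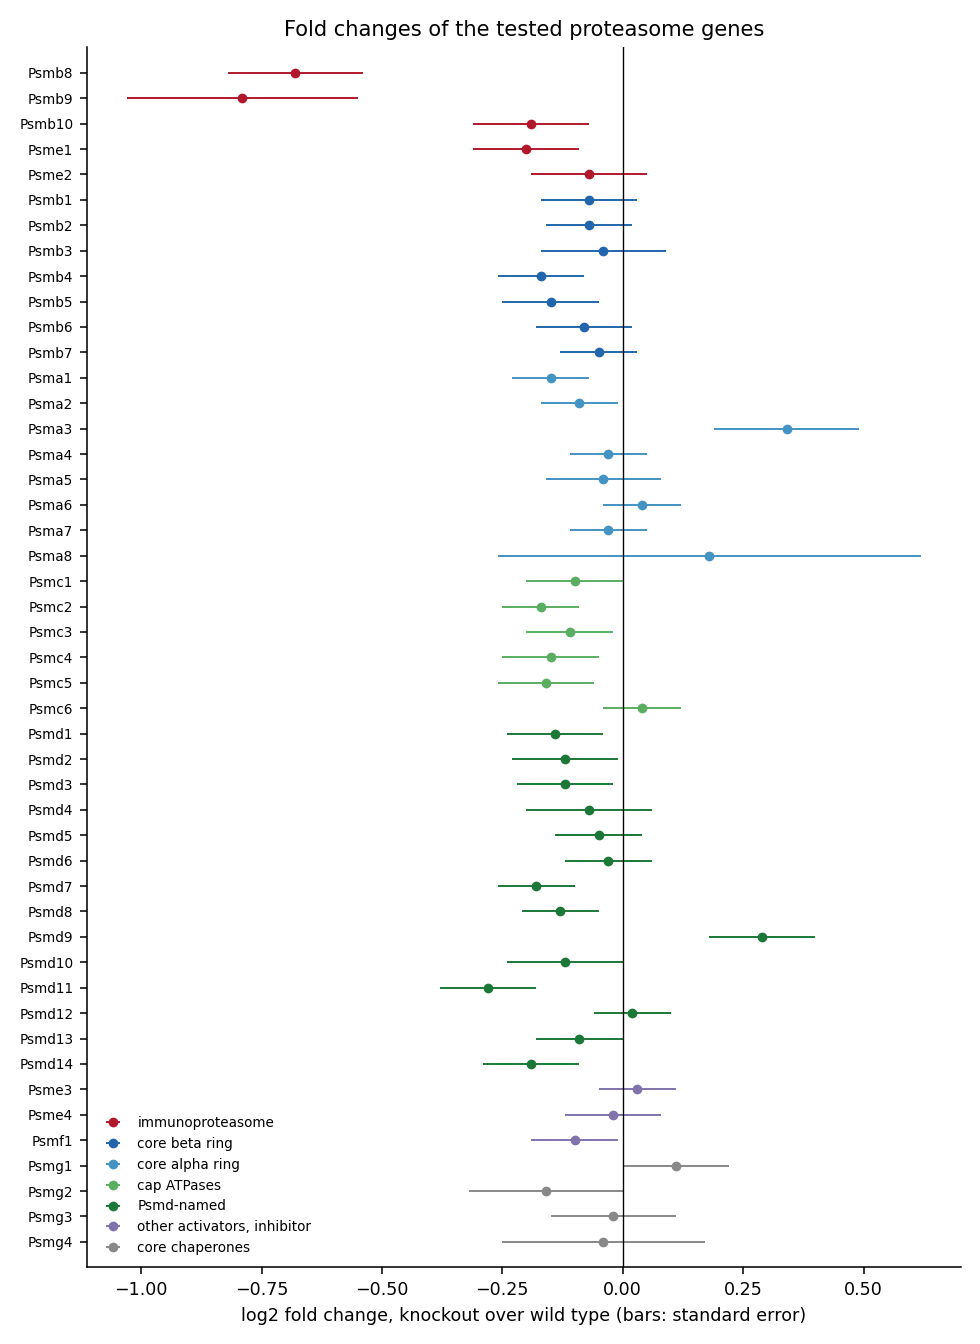
Log2 fold change, KO over WT, with its SE for the 47 tested members, grouped by role. Psmb9 and Psmb8 lie lowest, at -0.79 and -0.68, and the members outside the immunoproteasome lie between -0.28 and 0.34.

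In the beta rings, all 7 constitutive subunits had negative log2 fold changes, from -0.17 to -0.04, and none had an unadjusted p under 0.05. Psmb4, a subunit without catalytic activity, was the lowest, with a mean of 128 ± 5.48 CPM in KO samples and 144 ± 10.9 CPM in WT samples (SD, n = 3 each). Its groups separated narrowly. In the alpha rings, 5 of 8 were negative and 3 positive, with a median of -0.03. Psma1 was lowest, at -0.15 ± 0.08 (SE; edgeR adjusted p = 0.411). Psma3 was highest, at 10.7, 9.66 and 9.57 CPM in KO samples and at 9.36, 7.62 and 6.58 CPM in WT samples, without overlap and with a log2 fold change of 0.34 ± 0.15 (SE; edgeR adjusted p = 0.336). Of its transcript 34.1% is shared with other loci, and it overlaps the gene 3110056K07Rik. Psma8, the testis form of an alpha subunit, was at 0.577 to 1.44 CPM over the 6 libraries.

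In the cap, 5 of the 6 ATPases were negative, with a median of -0.13. Psmc2 was lowest, at 104 ± 3.63 CPM in KO samples and 117 ± 2.22 CPM in WT samples (SD, n = 3 each), without overlap and with an edgeR adjusted p of 0.333. Psmc6 had the only positive value, 0.04. Of 14 Psmd-named factors, 12 were negative, with a median of -0.12. Psmd11, a lid subunit of the cap, was at 48.0, 41.2 and 40.3 CPM in KO samples and at 54.5, 52.3 and 50 CPM in WT samples. The groups did not overlap, and the log2 fold change was -0.28 ± 0.10 (SE; edgeR adjusted p = 0.236). Of its transcript 52.8% is shared with other loci.

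Psmd7, the lid partner of the deubiquitinating subunit Psmd14, was at 78.9, 82.1 and 74.4 CPM in KO samples and at 90.5, 88.8 and 87.8 CPM in WT samples. The groups did not overlap, with a log2 fold change of -0.18 ± 0.08 (SE; edgeR adjusted p = 0.318). Psmd9, a chaperone that helps assemble the ATPase ring and is not part of the finished cap, was higher in KO samples. It was at 46.6, 47.1 and 37.4 CPM in KO samples and at 33.8, 36.4 and 37.2 CPM in WT samples, a log2 fold change of 0.29 ± 0.11 (SE; edgeR adjusted p = 0.279). KO sample 3 lay barely above WT sample 3.

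The remaining groups had small differences. Psme3 and Psme4, which encode other activators, and Psmf1, which encodes an inhibitor, had log2 fold changes from -0.10 (Psmf1) to 0.03 (Psme3). The core assembly chaperones Psmg1 to Psmg4 ran from -0.16 (Psmg2) to 0.11 (Psmg1), and no group separated among these 7 genes. Psmb11, the subunit of the thymus, had 0 counts in all 6 libraries, which allows up to 3 counts, or 0.14 to 0.173 CPM. Psmc3ip, a meiotic recombination factor whose symbol fits the pattern, was at 0.196 to 0.474 CPM and was not tested.

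The lower values of the other members were uneven across libraries. Relative to the WT mean, their median log2 level was -0.02, -0.06 and -0.20 in KO samples 1 to 3, and 0.04, 0.01 and -0.07 in WT samples 1 to 3. KO sample 3 was the lowest library for 25 of the 42, and for 4 of the 5 immunoproteasome genes, while 2346 of all 12522 genes tested were lowest there. Without KO sample 3 the median of the 42 was -0.04 and 33 were negative. The summed level of the immunoproteasome genes was 152, 150 and 134 CPM in KO samples and 175, 209 and 171 CPM in WT samples.

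**Figure D4:**
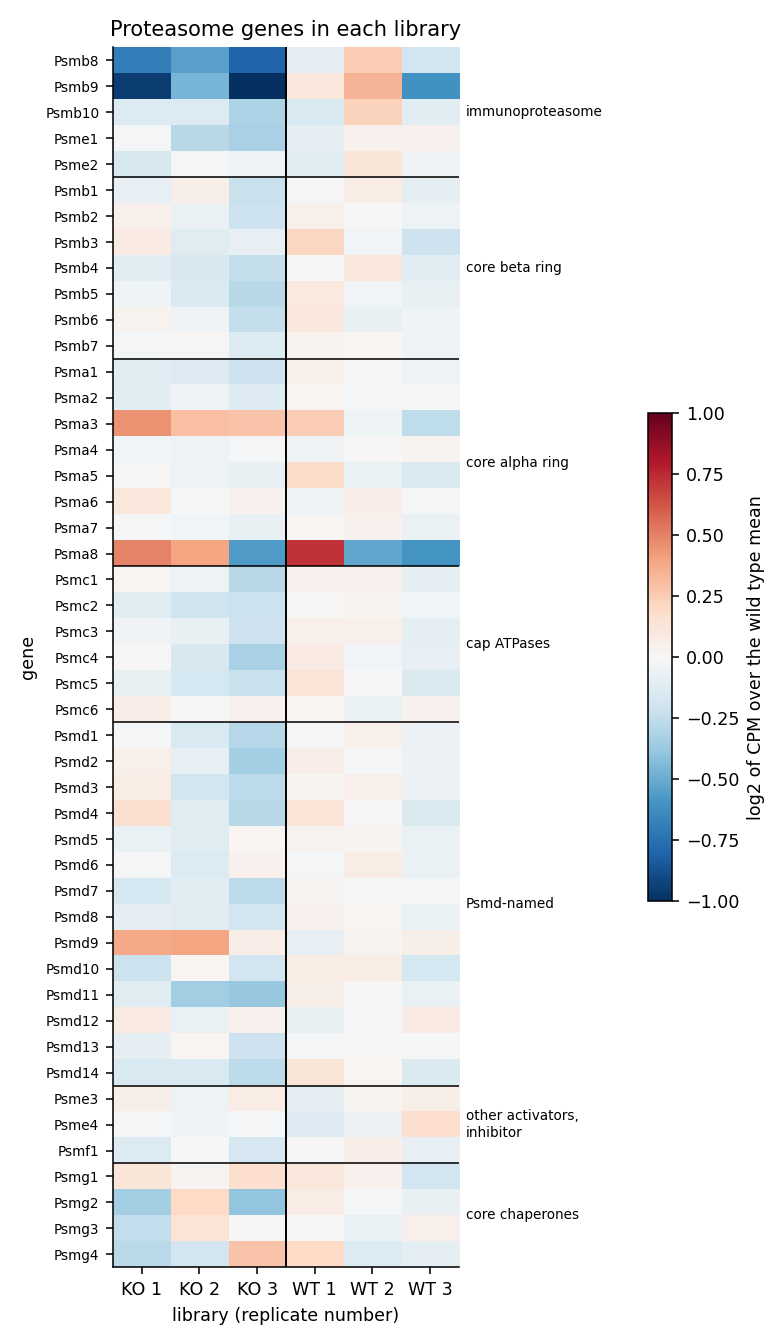
Log2 level of each tested member in each library relative to the WT mean, KO libraries left of WT libraries, with colours clipped at -1 and 1. Psmb8 and Psmb9 lie below the WT mean in all KO columns, where their median is -0.82, -0.50 and -0.90, and also in WT sample 3, at -0.40, and KO sample 3 is the lowest library for 25 of the 42 other members.

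Levels were compared between genes per kilobase of exon. They are approximate, because the exon lengths may differ from those of the annotation used for the counts. Psmb4, Psmb7, Psmb6 and Psma7 were highest in WT samples. Among the immunoproteasome genes, CPM per kilobase was 52.0 in KO samples and 59.7 in WT samples for Psme1, 26.3 in KO samples and 30 in WT samples for Psmb10, 16.5 in KO samples and 26.3 in WT samples for Psmb8, and 10.1 in KO samples and 17.3 in WT samples for Psmb9. Among the core, ATPase and Psmd-named genes, the 7 with over 50% of their transcript shared with other loci (at least 95% identity over at least 50 bases) had a median of 30.8 CPM per kilobase over all 6 libraries, and the 27 others of 60.2. Psma8 was left out of both.

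**Figure D5:**
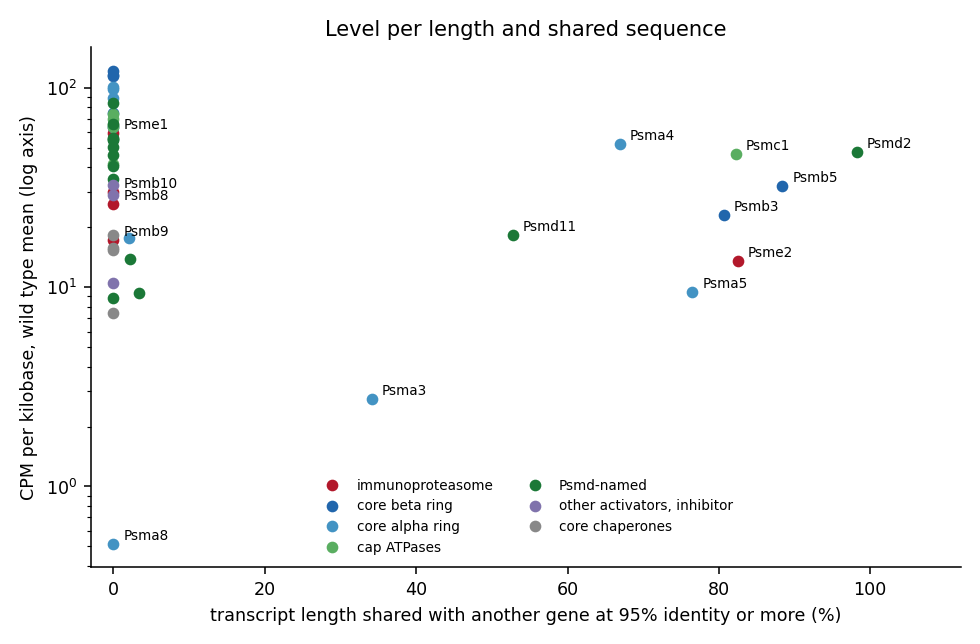
WT mean CPM per kilobase of exon (log axis) of the tested members against the percentage of their transcript shared with other loci. Over all 6 libraries, the 7 core, ATPase and Psmd-named genes over 50% shared have a median of 30.8 CPM per kilobase, and the 27 others of 60.2.

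Partners and regulators of the proteasome outside the family showed no common direction. Of 23 tested, 12 had negative and 11 positive log2 fold changes, with a median of -0.01, 0 called and 0 under an unadjusted p of 0.05. The lowest p-values belonged to Ubqln1, a shuttle for ubiquitin-tagged proteins, at -0.19 (edgeR adjusted p = 0.378), and Ubb, a ubiquitin gene, at 0.23 (edgeR adjusted p = 0.386). Pomp, which matures the core particle, had -0.20 (edgeR adjusted p = 0.395), and Rad23b, another shuttle, -0.19 (edgeR adjusted p = 0.421). Nfe2l1, the transcription factor known to drive proteasome genes and named here for that role, had 0.09 ± 0.11 (SE; edgeR adjusted p = 0.732).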

How the data were processed

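RNA was measured in liver samples, 3 KO and 3 WT. Per the labels' protocols, libraries were made from total RNA with the Illumina TruSeq RNA kit. The deposited values are raw read counts per gene symbol. Per the submitters' processing notes, CASAVA 1.8.2, TopHat2 2.0.8b and HTSeq were used, with the builds mm9 and hg19. Annotation and strand setting: not given in the sources used here. The 5 rows that name no gene were left out. Reads outside genes were 9.65% to 12.5%, and reads placed at several positions, 1.49 to 2.65 alignments per gene count, are not in the counts.

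Counts were tested with edgeR 4.0.16 (R 4.3.3; quasi-likelihood test, TMM, filterByExpr with minimum count 10, genotype the only term), 2-sided, with Benjamini-Hochberg adjustment over 12522 genes and a threshold of 0.05. CPM use TMM-scaled library sizes. Alternatives were other scalings, filters, DESeq2 1.42.0, limma-voom (limma 3.58.1), the replicate number as a block, and libraries left out. The fit was tested on simulated data. Ratios used exact permutation tests (scipy 1.17.1). Exon lengths are from GENCODE M21, and shared sequence was found with blastn 2.17.0. The named genes were Igfbp7, the immunoproteasome genes, the subunits they replace, members with an unadjusted p under 0.05, the extremes of each role, and up to 4 genes with the lowest p of a list. A gene that this rule names is not reported here. The members and lists were chosen with earlier results of these data known. The limit given for a count of 0 covers counting error only, because amplified reads carry no molecular identifiers.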

Additional observations from a re-analysis of the deposited data

How the results depend on the processing

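Psmb8 and Psmb9 were lower in KO samples under all 15 alternatives. Psmb8 ranged from -0.79 to -0.54 in log2 fold change (adjusted p from 0.00232 to 0.279), and Psmb9 from -1.01 to -0.58 (adjusted p from 0.0408 to 0.452). Their calls depended on the tool and the filter: DESeq2 called 2 members, and edgeR with no filter called 1, Psmb8 (adjusted p = 0.0487). Leaving out 1 library at a time gave 0 to 0 called members. The count over all genes was 27, with 430 by DESeq2, 133 with no filter, 1 without WT sample 1 and KO sample 2, and 3 to 36 with 1 library left out. Members under an unadjusted p of 0.05 numbered 5, with 11 under total-count scaling, 9 under upper-quartile scaling, and 2 to 6 with 1 library left out. Pathway list genes called were 0, with 4 by DESeq2, 1 with no filter and 0 to 0 with 1 library left out. The median of the partners was -0.01, with -0.06 under total-count and -0.06 under upper-quartile scaling and -0.05 to 0.04 with 1 library left out. That of the interferon-gamma genes was 0.00, with -0.05 and -0.04 under these scalings and -0.03 to 0.0 with 1 library left out. Total-count and upper-quartile scaling moved the median of all genes to -0.05 and -0.04. With 1 library left out, the immunoproteasome median ran from -0.30 to -0.14, that of the other members from -0.11 to -0.04 and that of MHC class I genes from -0.32 to -0.25. The ratio difference ran from -0.60 to -0.37 for Psmb8 over Psmb5, from -0.93 to -0.44 for Psmb9 over Psmb6 and from -0.22 to -0.02 for Psmb10 over Psmb7. Psme2 was at -0.15 without WT sample 1 and KO sample 2 and reached 0.0 without WT sample 2 (edgeR adjusted p = 0.997). The cause of these shifts was not tested.

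The replicate numbers are not shown to pair the samples: same-numbered samples had correlations of -0.0827, -0.098 and -0.0413. With the replicate number as a block, 1 gene in all was called, and the log2 fold changes were -0.67 for Psmb8 (adjusted p = 0.0941) and -0.76 for Psmb9 (adjusted p = 0.131).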
